A study of Drosophila melanogaster with 46 samples.

Results

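The medulla temporal factors are the transcription factors that neural stem cells (neuroblasts) of the *Drosophila* optic lobe switch on one after another. The 6 members described here are *hth*, *ey*, *slp1*, *slp2*, *D* and *tll*, taken by name from the 17490 genes of an RPKM table (reads scaled by the length of a gene's exons and by library size). All 6 members were present, and all 6 passed the filter of a mean of at least 0.5 RPKM that 9357 genes passed. The table held polyA RNA-seq of the dissected central nervous system of larvae at the third instar, with 4 libraries of wild type (*w1118*) and 4 of *Tet CD*, each made from 30 brains per the study's methods. *Tet CD* is a catalytic dead allele of *Tet*, a knock-in that carries a double point mutation in the iron-binding motif and, per the study's strain list, a GFP tag that *w1118* lacks. The comparison asks which genes depend on the enzymatic activity of TET, the fly homologue of enzymes that oxidise 5-methylcytosine. The tag and the strain background cannot be told apart from the point mutation here.

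Medulla neuroblasts arise from a neuroepithelium at the surface of the optic lobe as a proneural wave crosses it. In the main series a neuroblast then expresses Hth, Ey, Slp, D and Tll in that order. The factor present at each division contributes to the fate of the neurons born from it. In this series a factor commonly activates the one that follows it and represses the one before it. The same genes work elsewhere in the larval nervous system: *hth* in neuroepithelium, in many neurons and in glia, *ey* in mushroom body neurons and in intermediate neural progenitors, *D* also in those progenitors, and *tll* in optic lobe neuroepithelium. A level measured over whole central nervous systems therefore adds up all of these cells, and fewer expressing cells and less RNA per cell cannot be told apart in such bulk samples.

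The 6 genes differ widely in size, on the dm6 build. *hth* (FBgn0001235) lies at 3R:10507561-10639568 on the minus strand, spans 132008 bases and has 11839 exonic bases and 5 annotated transcripts, whose 3′ UTRs run from 384 to 4262 bases. *ey* (FBgn0005558) lies at 4:697689-721173 on the plus strand with 3720 exonic bases. *slp1* (FBgn0003430, 2L:3825675-3827099) and *slp2* (FBgn0004567, 2L:3836840-3839185) are neighbouring single-exon genes on the plus strand, 9740 bases apart, with 1425 and 2346 exonic bases. *D* (FBgn0000411) lies at 3L:14175610-14178620 on the minus strand with 2935 exonic bases, and *tll* (FBgn0003720) at 3R:30852315-30854400 on the plus strand with 1965. The longest 3′ UTR of the other 5 members is 632 bases, in *slp2*. A stretch of 207 exonic bases of *hth* is shared with an antisense gene, *asRNA:CR44018*, and the strand setting of the counting is not given in the sources used here.

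The study's motif search at TET binding sites named, among others, the GAGA factor, Pho and Tango, so the core letters of each were searched on both strands in the 300 bases around the outermost start of each member (250 before to 50 after). GAGAG, the core of the GAGA factor motif, was present in all 6 windows, against 29.7% of the windows of 13960 protein-coding genes of the same length. The 30-base stretches below, from the RefSeq genome of the same build, show 1 match for each of 5 members, with the match in capitals (CTCTC is GAGAG read on the other strand).
ey: tttttacacgccGAGAGttgccatcctgat
slp1: tcggcctgtgggCTCTCttcgtgtagactt
slp2: ctgagcgggaaaGAGAGtgcgctgagtgag
D: ttcgtttcgaaaGAGAGgtaaatatgtgtg
tll: aggggagagtgaGAGAGgatatgcgagaga

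The matches stood at different distances from the start. Those of *ey* (4:697638-697667), *slp1* (2L:3825590-3825619) and *D* (3L:14178702-14178731) were at positions -39, -73 and -99, where negative positions lie before the start. *slp2* had 2 matches, the one shown (2L:3836667-3836696) at position -161. *tll* had 6, some of which overlap each other, and the one shown (3R:30852181-30852210) was at position -122. GCCAT, the core of the Pho motif, was in the windows of *hth*, *ey*, *D* and *tll* and in those of neither *slp* gene (41.2% of all windows). ACGTG, the core of the Tango motif, was in those of *hth* and *slp2* (23.2%). A match of 5 letters is a description of the sequence and not a bound site.

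Shared sequence between relatives was checked because it could split the counts of 150-base reads. None of the 1395 stretches of 31 bases in *slp1* occurs in *slp2*. The longest run that *D* shares with its relative *SoxN* is 20 bases (CCGGACTACAAGTACCGGCC, 3L:14176701-14176720), and *ey* shares at most 16 bases in a row with its paralogue *toy*.

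The libraries held between 17500000 and 32600000 reads, as recovered from the smallest RPKM steps, which puts 640 to 11270 reads behind each value of a member. *Tet CD* replicates 2 and 3 stood apart from the rest, with low values for genes with long 3′ UTRs. In the 146 tested genes whose longest 3′ UTR has at least 4000 bases, the median log2 ratio to wild type was -1.01 in replicate 2 and -0.70 in replicate 3, but -0.13 in replicate 1 and -0.17 in replicate 4. In the 5295 genes with under 500 bases the median log2 ratio was 0.11 and 0.05 in these 2 libraries.

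In *Tet CD*, no medulla temporal factor passed the test across all genes (limma at a Benjamini-Hochberg adjusted p under 0.01, with at least a 1.2-fold difference), which 235 of 9357 genes or 2.51% passed, 1.16% higher and 1.35% lower. Of the 6, *hth* alone had an unadjusted p below 0.05, as did 28.3% of all genes, 14.4% higher and 13.9% lower. *hth* was lower in 3 of the 4 mutant libraries, while the log2 fold changes of the other 5 lay between -0.11 and 0.07. Without *Tet CD* replicates 2 and 3, a choice made after seeing the data, the log2 fold changes were -0.36 for *hth*, -0.02 for *ey*, -0.11 for *slp1*, 0.0049 for *slp2*, 0.11 for *D* and -0.06 for *tll*, and none passed the test. All 6 had overlapping groups, whereas the groups did not overlap in 18.8% of the genes tested, 9.35% higher and 9.42% lower in the mutant.

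**Figure D1:**
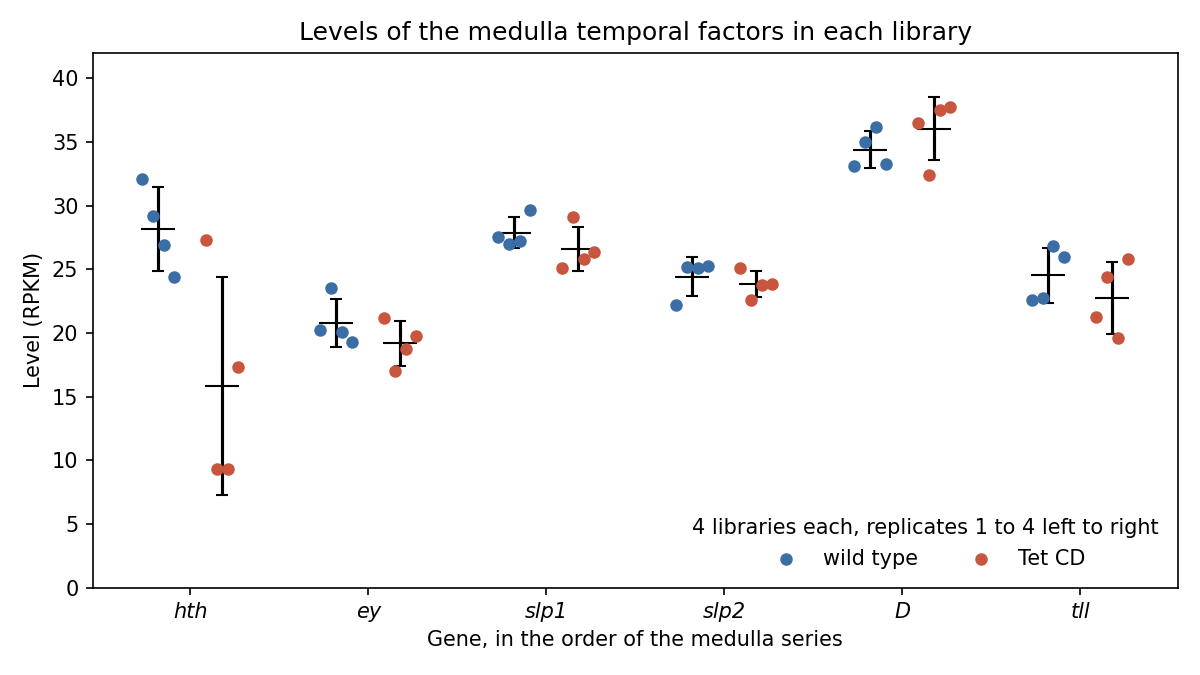
Level of each medulla temporal factor in RPKM (vertical axis) in each of the 4 wild-type (blue) and 4 Tet CD (red) libraries, with the group mean and SD in black. The hth values of Tet CD replicates 2, 3 and 4 (9.33, 9.33 and 17.3) lie below every wild-type value, while replicate 1 (27.3) lies among them, and the 2 groups overlap for the other 5 genes too.

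*hth* encodes Homothorax, a TALE homeodomain protein that works with Extradenticle and marks the first stage of the series. The wild-type libraries gave 32.1, 29.2, 26.9 and 24.4 RPKM, and the *Tet CD* libraries 27.3, 9.33, 9.33 and 17.3 RPKM (replicates 1 to 4 in each case). Replicates 2, 3 and 4 of *Tet CD* were below all 4 wild-type libraries, whereas replicate 1 lay inside their range. The wild-type mean was 28.2 ± 3.28 RPKM and that of *Tet CD* 15.8 ± 8.55 RPKM (SD, n = 4). The SD was 11.6% of the mean in wild type and 54.0% in *Tet CD*. The log2 fold change, on the log2(RPKM + 0.5) scale used throughout, was -0.95 with an SE of 0.30 and a 95% interval from -1.63 to -0.27 (limma adjusted p = 0.0805). The exact permutation test (two-sided, all 70 ways to split the 8 libraries) gave p = 0.0857, where the smallest p it can give is 0.0286. A lower log2 fold change was found in 142 genes, or 1.52% of those tested.

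Of the 3 mutant libraries with low *hth*, replicates 2 and 3 also had low values for long genes, whereas in replicate 4 the median of genes of like exon length was at the wild-type level. Relative to its mean in wild type, *hth* stood at log2 ratios of -0.04, -1.54, -1.54 and -0.68 in replicates 1 to 4 of the mutant. Among the 203 tested genes within 20% of its exon length, the medians of the same ratio were 0.00, -0.66, -0.35 and 0.03, and 22, 12 and 10 of them were lower than *hth* in replicates 2, 3 and 4. Among the 145 other genes with a 3′ UTR of at least 4000 bases, 35, 24 and 21 were lower than *hth* in those replicates, and the median log2 fold change was -0.49, with 1 gene called and 135 lower. The *hth* values thus lay in the lower part of both classes in the 3 replicates, but not outside them. *Tet* itself, whose mutant allele is still transcribed, had 76.4, 81.8, 88.8 and 83.4 RPKM in wild type against 81.0, 28.3, 39.2 and 72.4 RPKM in *Tet CD* (-0.70 on the log2 scale, limma adjusted p = 0.153), low in the same replicates 2 and 3. The part of the long-gene pattern in the *hth* values was not tested beyond these comparisons.

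**Figure D2:**
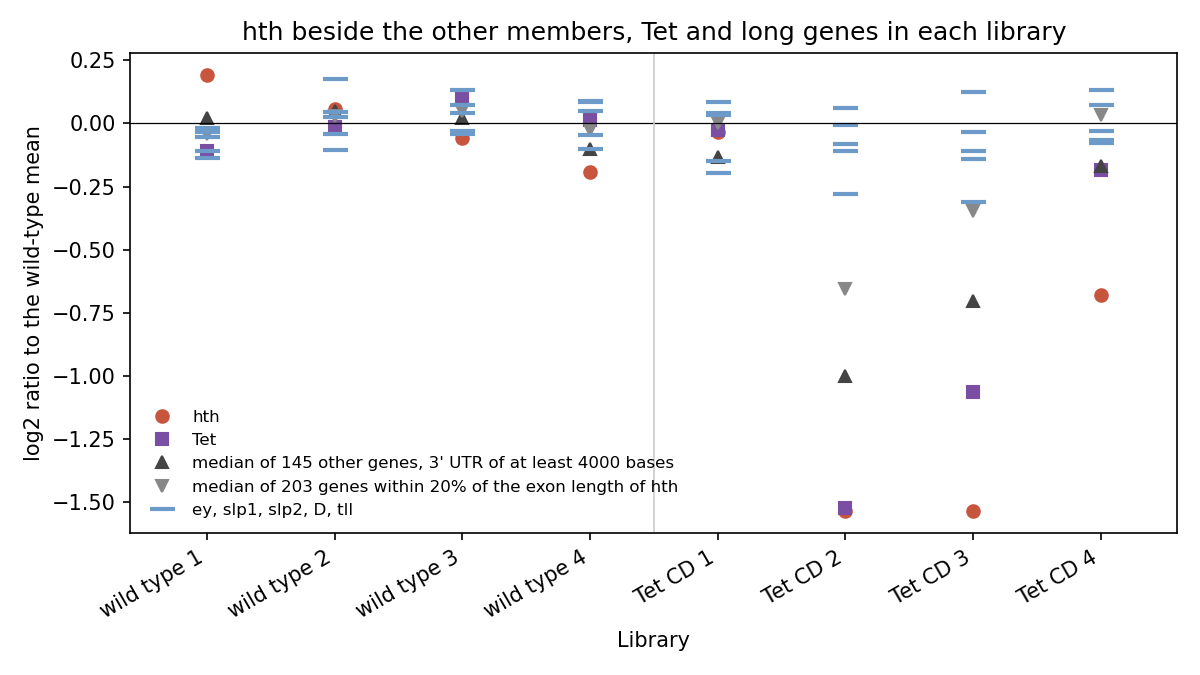
Log2 ratio of each library to the wild-type mean (vertical axis) for hth (red circles), Tet (purple squares), the other 5 members (blue dashes), and the medians of 145 other genes with a 3′ UTR of at least 4000 bases (dark triangles) and of 203 genes with an exon length like that of hth (grey triangles). In Tet CD replicates 2 and 3 hth is at -1.54 and the long-UTR median at -1.001 and -0.70, and in replicate 4 hth is at -0.68 with that median at -0.17.

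The size of the *hth* difference depended on which libraries were used. Without *Tet CD* replicates 2 and 3 it was -0.36 (limma adjusted p = 0.27). Weighting each library in limma by how closely it followed the fit gave -1.43 (adjusted p = 0.000319), past the threshold. The weights of *Tet CD* replicates 1 to 4 were 0.318, 0.399, 6.32 and 0.365. The weighted mutant value thus rested mostly on replicate 3, a library with low values for long genes. After removal of the trend over exon length in each library it was -0.74 (adjusted p = 0.0495). The direction was the same in all 18 alternatives. Those that changed only the low-value filter, the adjusted p threshold or a block by replicate number could not alter it.

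*ey* encodes the Pax6 homologue Eyeless, which marks the second stage. It had 20.3, 23.5, 20.1 and 19.3 RPKM in wild type against 21.2, 17.0, 18.8 and 19.8 RPKM in *Tet CD*. Replicates 2 and 3 of the mutant were the lowest of the 8 libraries, and the groups overlapped. The log2 fold change was -0.11 (SE 0.085, 95% interval -0.30 to 0.08, limma adjusted p = 0.418), and the exact permutation test gave p = 0.314. The interval leaves room for a decrease of up to 0.30 log2 units.

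*slp1* and *slp2*, the Sloppy-paired forkhead factors, are expressed together at the middle stage. *slp1* had 27.5, 27.03, 27.2 and 29.7 RPKM in wild type against 25.1, 29.1, 25.8 and 26.4 RPKM in *Tet CD*. Replicates 1, 3 and 4 of the mutant were below all wild-type libraries, and replicate 2 was above 3 of them. The log2 fold change was -0.07 (SE 0.062, 95% interval -0.21 to 0.07, limma adjusted p = 0.505, exact permutation p = 0.286). *slp2* had 22.2, 25.2, 25.1 and 25.3 RPKM in wild type against 25.1, 22.6, 23.8 and 23.9 RPKM in *Tet CD*. All 4 mutant libraries were inside the wild-type range. Its log2 fold change was -0.03 (SE 0.062, 95% interval -0.17 to 0.11, limma adjusted p = 0.764, exact permutation p = 0.600). The ratio of *slp1* to *slp2* RPKM was 1.07 to 1.24 in wild type and 0.999 to 1.29 in *Tet CD*. *slp1* was thus the higher of the pair in every wild-type library, and the ratio overlapped between the genotypes.

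*D* encodes Dichaete, a SoxB protein with an HMG box that marks the fourth stage. It had 33.1, 35.0, 36.2 and 33.3 RPKM in wild type against 36.5, 32.4, 37.5 and 37.7 RPKM in *Tet CD*. It was the only member with a higher mean in the mutant, with 3 libraries above all wild-type libraries and replicate 2 below them all. The log2 fold change was 0.07 (SE 0.063, 95% interval -0.08 to 0.21, limma adjusted p = 0.529, exact permutation p = 0.286).

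*tll* encodes Tailless, an orphan nuclear receptor that marks the last neuroblast stage before a glial phase. It had 22.6, 22.7, 26.8 and 26.0 RPKM in wild type against 21.3, 24.4, 19.6 and 25.8 RPKM in *Tet CD*. Replicates 1 and 3 of the mutant were below all wild-type libraries, while replicates 2 and 4 were inside their range. The log2 fold change was -0.11 (SE 0.098, 95% interval -0.33 to 0.11, limma adjusted p = 0.492, exact permutation p = 0.371).

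The order of the levels per length was read from the means. In wild type they were *D* at 34.4 ± 1.45, *hth* at 28.2 ± 3.28, *slp1* at 27.9 ± 1.22, *tll* at 24.5 ± 2.18, *slp2* at 24.4 ± 1.51 and *ey* at 20.8 ± 1.87 RPKM (SD, n = 4). The neighbours *hth* and *slp1*, *tll* and *slp2*, and *slp2* and *ey* had overlapping values, whereas *D* was above *hth* and *slp1* above *tll* in every pair of libraries. All 6 were moderately expressed, *ey* at the 56.8th and *D* at the 74.4th percentile of the genes tested. In *Tet CD* the means were 36.0 ± 2.48 for *D*, 26.6 ± 1.75 for *slp1*, 23.8 ± 1.03 for *slp2*, 22.8 ± 2.83 for *tll*, 19.2 ± 1.76 for *ey* and 15.8 ± 8.55 RPKM for *hth*. *D* was thus the highest member in all 8 libraries, and *hth* was second in *Tet CD* replicate 1 but last in the other 3.

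The make-up of the 6-gene sum shows the same. The summed RPKM was 157.8 to 162.6 in wild type and 156.5, 134.8, 134.8 and 150.9 in *Tet CD*. Without *hth* it was 125.7, 133.4, 135.4 and 133.4 in wild type and 129.1, 125.5, 125.5 and 133.6 in *Tet CD*. The groups overlapped, with *Tet CD* replicates 2 and 3 just below the lowest wild-type library. *hth* made up 15.5% to 20.3% of the sum in wild type and 17.5%, 6.92%, 6.92% and 11.5% in *Tet CD*. The ratio of *hth* to *ey*, the factors of the first and the second stage, was 1.24 to 1.59 in wild type and 1.29, 0.549, 0.497 and 0.875 in *Tet CD*.

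**Figure D3:**
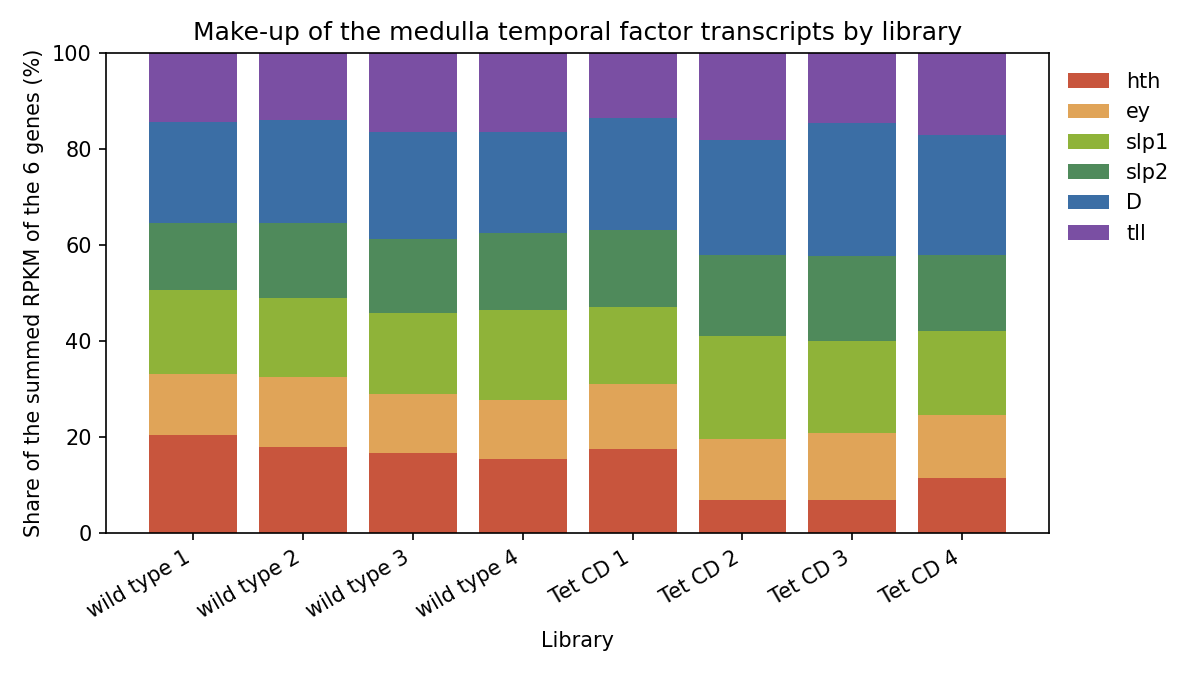
Share of each medulla temporal factor in the summed RPKM of the 6 genes (vertical axis, percent) in each library. The hth share (red, at the base) is 15.5% to 20.3% in wild type. It is 17.5%, inside that range, in Tet CD replicate 1 and 6.92%, 6.92% and 11.5% in replicates 2, 3 and 4.

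Another 11 genes act in the temporal series of medulla neuroblasts, as factors of early, intermediate or late stages (*SoxN*, *erm*, *opa*, *hbn*, *scro*, *dmrt99B*, *B-H1*, *B-H2*), in the Distal-less series at the tips of the crescent (*Dll*) or at its gliogenic end (*gcm*, *gcm2*). None of the 11 was called by limma, and 3 had an unadjusted p below 0.05, 2 lower and 1 higher, where 28.3% of all genes tested did. Their median log2 fold change was -0.08, against -0.09 for the 6 members and -0.01 for all genes tested. *SoxN*, a SoxB gene, had 96.0, 103.9, 116.0 and 113.4 RPKM in wild type against 92.1, 73.1, 83.7 and 106.3 RPKM in *Tet CD* (-0.28, limma adjusted p = 0.133). *erm*, a zinc finger gene that also restrains intermediate progenitors, had 24.6, 27.8, 29.9 and 28.2 RPKM in wild type against 24.8, 19.7, 21.4 and 25.7 RPKM in *Tet CD* (-0.27, limma adjusted p = 0.105). In both, replicates 2 and 3 were the lowest of the 8 libraries. *hbn* (-0.21), *dmrt99B* (-0.17), *opa* (-0.11), *scro* (-0.08) and *gcm2* (-0.02) were lower in the mean, and *gcm* (0.09), *Dll* (0.18) and *B-H2* (0.21) higher, all with an adjusted p of at least 0.179. The BarH homeobox gene *B-H1*, of the last neuroblast stage, had 3.81 to 5.75 RPKM in wild type against 5.91 to 7.93 RPKM in *Tet CD*. It was the 1 gene of the 11 whose groups did not overlap (0.34, limma adjusted p = 0.157), where 18.8% of all genes tested had no overlap, 9.35% higher.

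**Figure D4:**
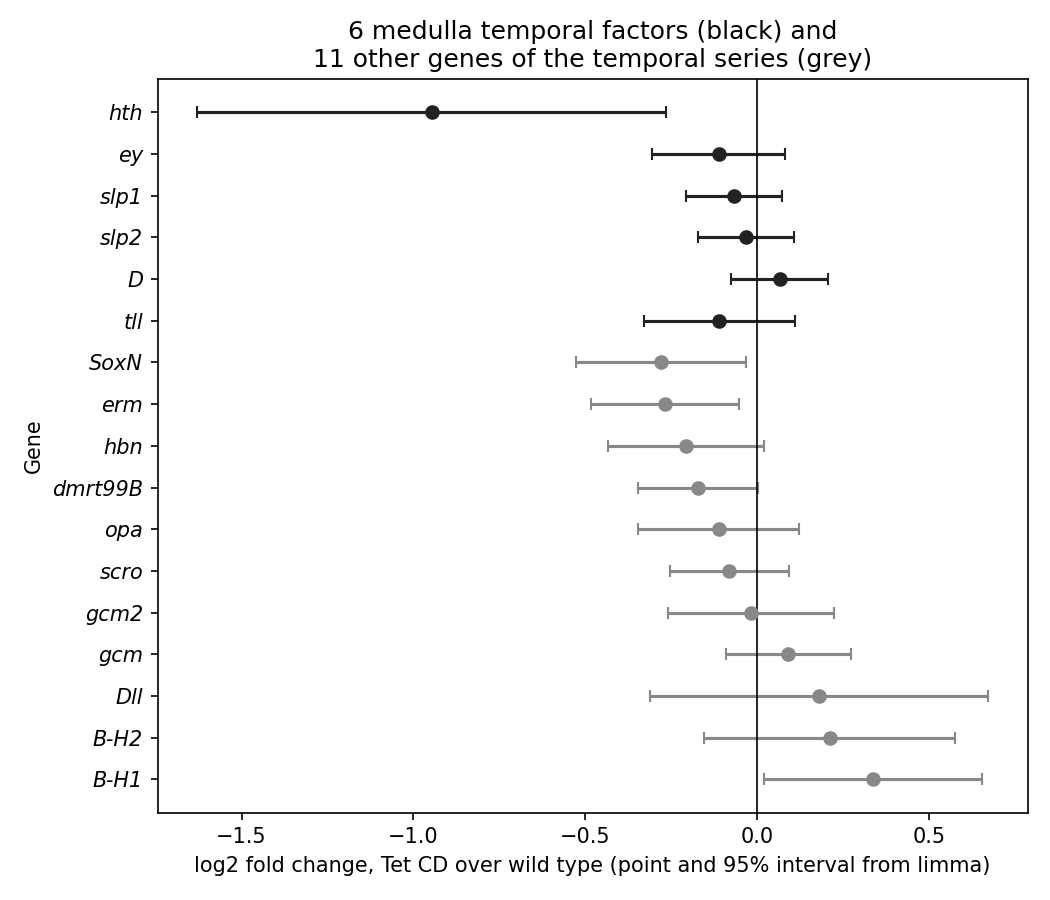
Log2 fold change of Tet CD over wild type (horizontal axis, points with 95% intervals from limma) for the 6 members in series order (black) and 11 other temporal genes in order of their change (grey). Only the intervals of hth (-1.63 to -0.27), SoxN, erm and B-H1 leave out 0, and none of the 17 genes passed the adjusted threshold.

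Partners and relatives of the members were followed because they share a complex or a gene family with them. *exd* encodes the partner that Hth carries into the nucleus. It had 156.1, 160.7, 166.8 and 159.4 RPKM in wild type against 150.4, 149.9, 147.9 and 149.7 RPKM in *Tet CD*. All mutant libraries were below all wild-type libraries, by little (-0.10, SE 0.041, limma adjusted p = 0.133). The TALE genes *achi* (0.12) and *vis* (0.14) did not pass the test. *toy*, the Pax6 paralogue upstream of *ey* in the eye, had 60.0 to 68.5 RPKM in wild type against 51.6 to 66.3 RPKM in *Tet CD* (-0.09). The Pax genes *eyg* and *toe*, which act in eye disc growth, were near 1 RPKM or under it in wild type. *toe* had 0.691, 0.588, 0.323 and 0.422 RPKM there and 2.61, 2.14, 1.02 and 0.785 RPKM in *Tet CD*, without overlap (1.01, limma adjusted p = 0.063), and *eyg* was 0.71 higher on the same scale (adjusted p = 0.213). Of the SoxB relatives of *D*, *Sox21b* had a log2 fold change of -0.39 (adjusted p = 0.102) and *Sox21a* of -0.01. The co-repressor *gro*, which Slp and Tll proteins can recruit, was at -0.18, and the nuclear receptors *dsf* and *Hr51*, relatives of *tll*, at -0.09 each. *Hr83* had at most 0.334 RPKM in any library and was not tested. None of the 12 tested genes of this list was called by limma, and 4 had an unadjusted p below 0.05, 3 lower and 1 higher (28.3% of all genes).

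The cells before and after the neuroblast in the lineage were followed with further lists, in none of which limma called a gene. Beside each count at an unadjusted p below 0.05 from here on stands the share over all genes, 28.3%, 14.4% higher and 13.9% lower. Of 9 genes of the neuroepithelium and the proneural wave, 7 were higher in the mean and 3 had an unadjusted p below 0.05, all higher. The median was 0.16. The atypical cadherin genes *ds* (5.54 to 8.05 RPKM in wild type, 9.98 to 19.0 in *Tet CD*; log2 fold change 0.88, limma adjusted p = 0.0207) and *ft* (0.71, adjusted p = 0.05) and the proneural gene *l(1)sc* (0.56) had no overlap between groups, and *upd1* (-0.29) and *Dl* (-0.06) were the lowest. Of all genes tested, 18.8% had no overlap, 9.35% higher. Of 9 genes that divide the crescent into domains, 6 had an unadjusted p below 0.05, 3 in each direction. The signal genes *hh* (0.78) and *wg* (0.64) were the highest, and the homeobox gene *Vsx1* (-0.43) the lowest. Markers of attached tissue moved with some of the higher genes here. In the mutant, *ds*, *ft*, *hh*, *wg*, and of the other lists *toe*, *eyg* and *eya*, were highest in replicate 1 and lowest in replicate 4, and so were the sums of eye disc genes (52.3, 45.3, 37.7 and 35.4 RPKM in replicates 1 to 4) and of tracheal genes (148.2, 128.0, 96.5 and 87.3 RPKM). In wild type all 7 genes and both sums were lowest in replicate 3. These 7 were picked after their values were known, and *dpp* of the domain list and *so* of the lamina list ran the same way. Other higher genes followed in part. In the mutant *l(1)sc* (9.88, 8.82, 9.60 and 8.15 RPKM) and the neuroblast gene *dpn* (7.19, 6.03, 6.14 and 5.68 RPKM) were also highest in replicate 1 and lowest in replicate 4. In wild type, however, *l(1)sc* (4.43, 6.29, 7.69 and 6.08 RPKM) and *dpn* (4.07, 4.84, 5.80 and 4.88 RPKM) were lowest in replicate 1 and highest in replicate 3. The part of that tissue in the levels of these genes was not tested. Of 7 neuroblast genes the median was -0.01, from *insc* (-0.04) and *mira* (-0.03) to *dpn* (0.33) and *grh* (0.49), and 2 had an unadjusted p below 0.05, both higher.

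Neurons born in the medulla carry identity factors set by the temporal series. Of 13 such genes tested (*ap* was not matched by symbol), 12 were lower and 1 higher in the mean, 5 of them and the 1 with an unadjusted p below 0.05, and the median was -0.24. *bsh*, a homeobox gene of neurons born in the Hth stage, had 6.65, 6.62, 7.89 and 8.81 RPKM in wild type against 5.41, 4.12, 5.34 and 6.60 RPKM in *Tet CD*. All 4 mutant values were below all wild-type values (-0.45, limma adjusted p = 0.0788). *acj6*, a POU gene, had 7.54 to 8.78 RPKM in wild type against 3.32 to 6.83 RPKM in *Tet CD* (-0.66, adjusted p = 0.0503), *svp* was nearly level (-0.0046) and *eya* was the 1 higher gene (0.47, adjusted p = 0.0731). The median of these 13 was below that of all genes, and so was that of 4 general neuron genes (-0.57, all 4 lower and with an unadjusted p below 0.05, summed level 295.8 to 336.9 RPKM in wild type against 289.0, 180.0, 220.5 and 291.9 RPKM in *Tet CD*). The lowest sums again fell in replicates 2 and 3, and the part of those libraries in the neuron lists was not tested.

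Another 3 lists cover cells that also use these factors. Their values too are of the whole central nervous system and not of these cells alone. In the list for the mushroom body, where *ey* is expressed, *mamo* had 3.18 to 4.64 RPKM in wild type against 0.945 to 2.23 RPKM in *Tet CD* (-1.05, limma adjusted p = 0.014). In the same list *dnc*, a cAMP phosphodiesterase gene, was at -0.95 (adjusted p = 0.0401). Both are long, with 29476 and 16683 exonic bases. They were lowest in *Tet CD* replicates 2 and 3 (*mamo* 1.42 and 0.945 RPKM, *dnc* 3.98 and 5.22 RPKM), and replicates 1 and 4 were below all wild-type values too. *trio* (-0.05) and *sNPF* (0.19) were the highest of the 7, whose median was -0.16, and 4 had an unadjusted p below 0.05, 3 lower and 1 higher. In the intermediate progenitor series, which uses *D* and *ey* in another order, *osa* (-0.26) and *ham* (-0.18) were the lowest and *btd* (0.26) and *grh* (0.49) the highest of 6, with a median of -0.06 and 2 at an unadjusted p below 0.05, both higher. The 3 lamina genes ranged from *sim* (-0.35) through *glec* (0.06) to *so* (0.35). *osa*, with 10723 exonic bases, was also lowest in *Tet CD* replicates 2 and 3. The part of the long-gene pattern in these lists was not tested. No gene of these lists was called.

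The genes whose levels ran most like each member over the 8 libraries were found by Pearson correlation of the log2 values among 8573 genes. With *hth* they were *mbl* (r = 0.996), *CG45050* (0.994) and *Syp* (0.993), whose longest 3′ UTRs have 5609, 4590 and 4604 bases. Syp, an RNA-binding protein, had 110.7 to 126.2 RPKM in wild type against 103.2, 37.2, 37.0 and 74.0 RPKM in *Tet CD* replicates 1 to 4, with replicates 2 and 3 nearly equal and lowest as in *hth*. In all, 272 genes had an r above 0.9 with *hth*, against 16 with *ey*, 24 with *slp1*, 12 with *slp2*, 5 with *D* and 4 with *tll*. The closest to *ey* were *dbr* (0.979), *Tomosyn* (0.958) and *RhoGAP16F* (0.953), those to *slp1* were *CG5510* (0.983), *CG2852* (0.966) and *CG3939* (0.965), and those to *slp2* were *Daxx* (0.948), *CG11970* (0.944) and *mei-41* (0.937). *D* ran closest to *jumu* (0.967), *tho2* (0.960) and *His2A:CG33820* (0.932), and *tll* to *Lac* (0.982), *wls* (0.939) and *ImpE1* (0.924). None of these lists held another member. All points share the same 8 libraries, and the 100th gene by r still had 0.955 with *hth* and 0.764 to 0.858 with the other members, so these are descriptions only.

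Tissue attached to the brain can add to levels of genes such as *ey* and *hth*, which the eye disc expresses. The summed level of 6 eye disc genes was 21.5 to 35.3 RPKM in wild type against 35.4 to 52.3 RPKM in *Tet CD*, and that of 4 tracheal genes was 36.5 to 80.6 and 87.3 to 148.2 RPKM. All 5 eye disc genes tested and all 4 tracheal genes were higher in the mean, with median log2 fold changes of 0.55 and 0.82 and 4 with an unadjusted p below 0.05 in each list, none called by limma. Those sums were highest in *Tet CD* replicate 1, the mutant library in which *hth* and *ey* were highest too. The other mutant libraries did not follow that order. The sums were lowest in replicate 4, where *hth* (17.3 RPKM) and *ey* (19.8 RPKM) were above their values in replicates 2 and 3. In the mean, both sums were higher in the mutant and both genes lower. The sum of fat body genes was highest in wild-type replicate 4 (34.0 RPKM) and *Tet CD* replicate 2 (54.2 RPKM), and at most 8.15 RPKM in the others. The sums of hemocyte (11.1 to 18.7 RPKM), muscle (7.25 to 13.8), salivary gland (1.39 to 9.08), ring gland (92.9 to 264.1) and glia genes (224.1 to 280.9) overlapped between the genotypes. Single markers within them did not, as seen after their values were known: *NimC1* of hemocytes had 0.0699 to 0.118 RPKM in wild type against 0.528 to 1.18 in the mutant (under the filter, not tested), and the glial gene *moody* 10.2 to 11.99 against 13.3 to 15.2 RPKM (0.30, limma adjusted p = 0.0381). The hemocyte gene *Hml* had overlapping values, with a log2 fold change of 1.25 (adjusted p = 0.0544), while *Pxn*, which makes up most of the hemocyte sum, was at -0.13. The part of these tissues in the members' levels was not tested.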

How the data were processed

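PolyA RNA of the larval central nervous system was sequenced as paired 150-base reads. Per the study's methods, the authors trimmed reads with Cutadapt, aligned them to dm6 (Ensembl release 70) with HISAT2, counted them per gene with HTSeq and used Cufflinks to make the deposited RPKM. Versions and strand setting are not given in the sources used here. RPKM divides by exon length and library size, so the levels of different genes were set side by side per length only. The exon length covers all annotated transcripts of a gene, and which of them were expressed was not tested. A loss of reads from part of long transcripts lowers their values. The 4 further columns of per-sample values, which match no label, were not used, and the other assays and genotype of the series were not analysed here.

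Values were tested as log2(RPKM + 0.5) where the average of a gene over the 8 libraries reached 0.5 RPKM. The *Tet CD* and wild-type libraries were compared with limma 3.58.1 (R 4.3.3, trended variance, no covariate), with Benjamini-Hochberg adjustment over all 9357 genes. The study used DESeq2 on counts with the same thresholds, but RPKM are not counts. For each member a two-sided exact permutation test was added. Sources do not say whether the replicates are separate cultures of larvae, so p-values measure the spread between these libraries. Library sizes were taken from the spacing of values under 0.3 RPKM, of which 97.6% to 98.1% per library were whole reads within 0.01. Gene structures came from the Ensembl release 115 annotation and sequences from RefSeq, both on dm6.

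The text names the 6 members, all 11 other temporal genes, partners and relatives, *Tet*, the 2 lowest and 2 highest genes and any called gene of the lists for crescent domains, neuroepithelium, neuroblasts, medulla neurons, lamina, intermediate progenitors and mushroom body, and the 3 genes most like each member. A gene that this rule names and 2 sequences are not reported here.. The members and lists were chosen with earlier results of these data known.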

Additional observations from a re-analysis of the deposited data

Results flagged for a closer look

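Among the 6 members and 11 other temporal genes, each of the 34 groups of 4 libraries was searched for a library far from the other 3 (Dixon's test at 95%), which chance meets in about 1 of 20 groups, or 1.7 here. It marked 2. *slp2* had 22.2 RPKM in wild-type replicate 1, where the other 3 had 25.1 to 25.3 RPKM. *B-H1* had 7.93 RPKM in *Tet CD* replicate 1, where the other 3 had 5.91 to 6.24 RPKM.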

How the results depend on the processing

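The log2 fold change of each member was recomputed under 18 alternatives, 1 of which, leaving out *Tet CD* replicates 2 and 3, was chosen after seeing the data. Changes of the low-value filter, of the adjusted p threshold or a block by replicate number leave a log2 fold change as it is. *ey* (-0.17 to -0.02), *slp1* (-0.11 to -0.04), *D* (0.04 to 0.11) and *tll* (-0.26 to -0.04) kept their direction and stayed short of the threshold in all 18. *slp2* ranged from -0.08 to 0.0049, the last without *Tet CD* replicates 2 and 3. *hth* ranged from -1.43 with library weights (limma adjusted p = 0.000319, past the threshold) to -0.36 without those replicates, and from -1.25 to -0.75 when 1 library was left out. The library weights favoured *Tet CD* replicate 3. The highest adjusted p for *hth* was 0.27, and that without *Tet CD* replicate 1 was 0.0121. The median of the other temporal genes stayed between -0.12 and 0.0052. The cause of these shifts was not tested.

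The number of genes called was less stable. Of the 9357 genes, 109 were called higher and 126 lower. The counts were 826 and 1024 with library weights, 442 and 350 at an adjusted p below 0.05, 44 higher without *Tet CD* replicates 2 and 3, 197 lower after removal of the length trend, and 52 to 205 higher and 71 to 203 lower with 1 library left out. With the replicate number as a block, 51 genes were called higher and 60 lower, and *hth* had an adjusted p of 0.0677; the block changed no call of a member. After each gene's group mean was subtracted, same-numbered wild-type and *Tet CD* libraries had correlations of 0.236, -0.186, 0.0398 and -0.105. The numbers were therefore not taken to pair the libraries. Each value of a member rests on 640 to 11270 reads, and the share of counting error in the spread between libraries was not separated.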
